A study of Mus musculus with 4 samples.

Results

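The regions described here were intervals of RBPJ peaks that lay just beyond the 3′ ends of genes. They comprised 771 of the 25454 consensus regions of the series, or 3.03%. A consensus region was an interval of merged overlapping peaks that held at least 1 peak of each of the 2 RBPJ libraries. Members were up to 3000 bp wide, had their midpoint 0 to 5 kb beyond the 3′ end of a protein-coding gene in mm10, lay inside no GENCODE gene body, and were more than 1 kb from any transcription start site (TSS). RBPJ was profiled by HT-ChIPmentation, a chromatin immunoprecipitation in which the sequencing adaptors are inserted on the beads so that few cells are enough. The cells were alveolar macrophages (AMs) sorted from bronchoalveolar lavage fluid. The mice were C57BL/6J, WT, 9 wk of age and without further allele or treatment. There were 2 RBPJ libraries, with 106228 peaks in replicate 1 and 47224 in replicate 2, and 2 input libraries, which served as the background when the authors called peaks. It is not stated in the labels whether the replicates came from separate mice, so differences between them may be technical.

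RBPJ is the DNA-binding factor of the Notch pathway. The cleaved intracellular part of a Notch receptor joins RBPJ on DNA and turns on target genes, whereas RBPJ without Notch can recruit corepressors. AMs clear surfactant and debris in the airspace, and their identity depends on PU.1, CEBP and nuclear receptor factors. Sequence just beyond a 3′ end can hold enhancers of the gene itself, enhancers or upstream promoter elements of the next gene, or short genes of its own, such as tRNA genes. tRNA genes are transcribed by RNA polymerase III from promoter elements that lie inside the gene.

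The strongest downstream regions fell into 2 kinds, those at a tRNA gene and those away from one, and windows of 100 bp to each side of the summit are shown for 6 of the 12 highest to let both be seen. They are given 5′ to 3′ on the strand of the protein-coding gene they follow, from the GRCm38 (mm10) reference, with the gene and the window's position. In the first 3 windows capitals mark the bases of a tRNA gene annotated by RefSeq, whatever that gene's own strand (72 bases in each of the Rcsd1 and Ccdc115 windows, and 34 in the Gm5737 window). In the last 3 they mark matches to the RUNX (TGTGGT) or PU.1 (GAGGAAG) motif on either strand.
Rcsd1 chr1:165641526-165641726, tRNA gene n-TPagg2: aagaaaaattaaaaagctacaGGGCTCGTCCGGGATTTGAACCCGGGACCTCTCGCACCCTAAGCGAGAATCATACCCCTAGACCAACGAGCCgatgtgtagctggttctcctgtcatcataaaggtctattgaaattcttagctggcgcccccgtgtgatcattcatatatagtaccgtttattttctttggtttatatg
Ccdc115 chr1:34434792-34434992, tRNA gene n-TEttc1: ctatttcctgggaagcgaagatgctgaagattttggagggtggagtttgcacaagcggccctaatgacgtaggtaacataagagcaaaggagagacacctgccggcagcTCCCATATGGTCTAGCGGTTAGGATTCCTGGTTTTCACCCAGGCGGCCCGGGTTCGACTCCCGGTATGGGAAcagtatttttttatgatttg
Gm5737 chr7:120835527-120835727, tRNA gene n-TLtag1: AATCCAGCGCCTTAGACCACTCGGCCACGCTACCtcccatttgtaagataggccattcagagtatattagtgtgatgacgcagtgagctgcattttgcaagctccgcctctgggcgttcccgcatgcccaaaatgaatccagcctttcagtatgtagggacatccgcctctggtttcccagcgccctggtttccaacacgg
Ace chr11:105990480-105990680: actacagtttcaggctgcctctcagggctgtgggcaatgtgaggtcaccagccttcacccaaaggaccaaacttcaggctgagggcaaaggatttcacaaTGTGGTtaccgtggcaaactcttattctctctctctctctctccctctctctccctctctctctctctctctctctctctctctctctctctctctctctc
Rapgef4 chr2:72260754-72260954: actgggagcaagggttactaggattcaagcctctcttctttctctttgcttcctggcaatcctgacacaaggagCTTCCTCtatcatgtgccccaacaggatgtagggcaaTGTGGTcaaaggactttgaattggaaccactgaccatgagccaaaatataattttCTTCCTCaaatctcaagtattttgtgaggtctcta
Batf chr12:85712642-85712842: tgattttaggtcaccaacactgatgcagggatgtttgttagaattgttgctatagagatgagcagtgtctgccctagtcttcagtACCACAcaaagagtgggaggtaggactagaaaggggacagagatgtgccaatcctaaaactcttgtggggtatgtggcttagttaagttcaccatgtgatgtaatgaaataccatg
The Ccdc115 window was chosen after its values were seen. It held the RBPJ core motif, TGGGAA, at 2 places, 1 of them inside the tRNA gene, at positions 176 to 181 counted from the window's 5′ end. The Gm5737 window held 1 match to the RBPJ core outside the tRNA gene, and the Rcsd1, Ace, Rapgef4 and Batf windows held none. Among the 12 highest, the windows of regions at tRNA genes that are not shown held none either. These were the Borcs6, Olfr1359 and Arl5c windows and those of Ctc1. The Rapgef4 window had the PU.1 motif at 2 places and the RUNX motif at 1, and 88 bases of the Ace window were masked as repeats, much of it an alternating CT run.

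Fold enrichment over background was modest for most downstream regions and high for a few. The median fold, the peak caller's value at the summit, was 5.84 in replicate 1 (range 2.07 to 20.8) and 4.69 in replicate 2 (range 2.74 to 17.4). The lower fold of the 2 libraries, used below to rank regions, had a median of 4.35 (interquartile range 3.68 to 5.36). It reached 10 in 16 regions and stayed under 4 in 249. Replicate 1 gave the higher fold in 536 of the 771 regions. Across the regions, the folds of the replicates had a Spearman rank correlation of 0.435, beside 0.530 over all 24907 consensus regions up to 3000 bp wide. These points share both libraries and are not independent. Folds took few distinct values. In replicate 2, 73.3% of the regions lay on whole multiples of 0.335, to within 0.02 of that step, and 72 regions had the same fold of 4.35. The summits of the libraries lay within 100 bp of each other in 49.9% of the regions. Neither this share nor that of regions higher in replicate 1 is given here for all consensus regions. They cannot be read as particular to downstream regions.

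**Figure D1:**
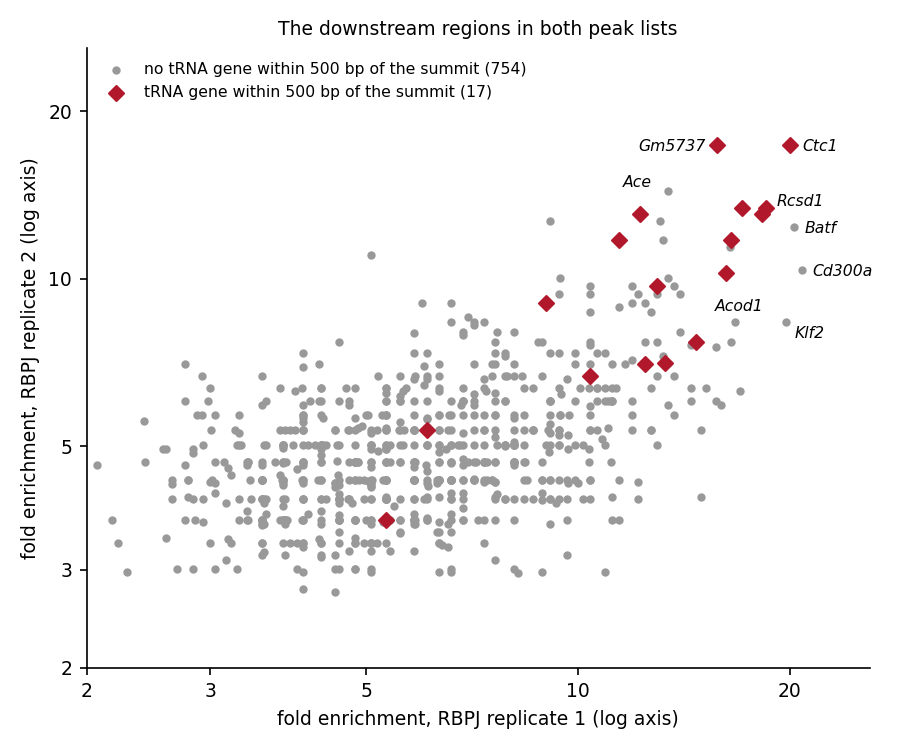
Fold enrichment of each of the 771 downstream regions in RBPJ replicate 1 (horizontal) and replicate 2 (vertical), both on log axes, with 1 point per region. Diamonds are the 17 regions with a tRNA gene within 500 bp of the summit, and most of them sit in the upper right, where both folds are high. The rows and columns of points are folds that many regions share.

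Of the 12 downstream regions with the highest lower fold, 8 had a tRNA gene within 500 bp of the summit. Over all members this held for 17 of 771 (2.205%, Wilson 95% interval 1.38 to 3.50%). It held for 12 of 890 upstream flank regions (1.35%), for 39 of 3987 remote intergenic regions (0.978%), and for 0.442% of all consensus regions up to 3000 bp wide. The tRNA genes are annotated by RefSeq and are not gene bodies in the GENCODE annotation that defined the regions. They were noticed only after the regions had been ranked, so the counts are a description. The 17 regions had a median lower fold of 10.3 (range 3.68 to 17.4), beside 4.35 for the other 754. Their summits lay a median of 44 bp from the tRNA gene (range 8 to 411 bp), and 9 of the 17 were on chromosome 11. Of the 40 tRNA genes with their midpoint in sequence that met the positional rule, 25 had a downstream region within 500 bp. Of all 403 tRNA genes of RefSeq, 153 had a consensus region of any class nearby, and the 2 shares were not compared by a test. Neighboring tRNA genes can share a region, so the 25 genes do not count as separate hits. The RBPJ core motif was found in the summit window of 6 of the 17 and of 163 of the 754.

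The highest region of all lay at chr11:69040093-69042750, 4948 bp beyond Ctc1, which encodes a subunit of the telomere-capping CST complex. Its fold was 20.04 in replicate 1 and 17.4 in replicate 2, and its summit was 86 bp from the glycine tRNA gene n-TGtcc6. The same gap between Ctc1 and Aurkb, a mitotic kinase gene, held a second region, just over 1 kb beyond Ctc1, at the isoleucine tRNA gene n-TIaat5, with folds of 16.5 and 11.7. A further region 3340 bp beyond Ctc1, with its summit 411 bp from the proline tRNA gene n-TPcgg3, was much lower, with folds of 5.33 and 3.68. A short distance away, the region 1120 bp beyond Borcs6, which encodes a subunit of the lysosome-positioning BORC complex, reached 17.1 and 13.4 at the serine tRNA gene n-TSgct3. High folds at tRNA genes were also read beyond Gm5737 (15.8 and 17.4, leucine tRNA gene n-TLtag1), Rcsd1 (18.5 and 13.4, proline tRNA gene n-TPagg2) and the olfactory receptor gene Olfr1359 (18.3 and 13.1, glycine tRNA gene n-TGgcc7). The midpoint of the Olfr1359 region lay inside the methionine tRNA gene n-TMcat7, and n-TGgcc7 was 120 bp from the summit. The Arl5c region had folds of 12.3 and 13.1 at the cysteine tRNA gene n-TCgca55. The Ccdc115 region had folds of 11.4 and 11.7 at the glutamate tRNA gene n-TEttc1. No fold in these 8 regions was under 11.4, which follows from their choice by the lower fold of the 2 libraries. One more region of this kind, picked after its values were seen, lay near a Notch target. It followed 9130213A22Rik at chr11:69118269-69119102 and lay within 5 kb before the TSS of Hes7, a Notch target of the segmentation clock, with folds of 12.9 and 9.71 and the glycine tRNA gene n-TGgcc5 15 bp from the summit. Its summit window held the RBPJ core motif in its longer form, GTGGGAA.

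Away from tRNA genes, the highest downstream regions followed Ace, Rapgef4, Batf and Id1. The Ace region (chr11:105989525-105990866) spanned the 3′ end of this gene for angiotensin-converting enzyme, with its midpoint 231 bp beyond it. Its fold was 13.4 in replicate 1 and 14.4 in replicate 2. The Rapgef4 region (chr2:72260447-72261487) lay 3493 bp beyond a gene for a cAMP-activated exchange factor of Rap GTPases, with folds of 13.1 and 12.7. For both, the replicates read nearly the same fold. Batf encodes a basic leucine zipper partner of JUN proteins. Its region at chr12:85711985-85713202, 3506 bp beyond the gene, had folds of 20.3 and 12.4, and a weaker neighbor 1900 bp beyond the gene had 4.68 and 6.36. Id1 encodes an inhibitor of basic helix-loop-helix factors. Its region at chr2:152741061-152742840, 4540 bp beyond the gene, had folds of 13.2 and 11.7, and 2 weaker regions lay between it and the gene (6.53 and 3.30 at 1345 bp, 6.60 and 4.69 at 2747 bp). Neither Ace, Rapgef4 nor Batf had a consensus region within 1 kb of a TSS, whereas Id1 did.

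Some of the next highest regions followed macrophage genes, and those named in this paragraph were picked after their values were seen. Regions ranked among them followed other genes as well, such as Tbc1d24, Csnk1e, Bcas1 and Dnah2. The region beyond Cd300a, an inhibitory receptor gene of myeloid cells, had the highest replicate 1 fold of all members, 20.8, and 10.4 in replicate 2. Klf2, a zinc finger factor gene, had a region 707 bp beyond it with folds of 19.8 and 8.37. The region beyond Acod1, which encodes the enzyme that makes itaconate, had folds of 16.7 and 8.37. All 3 regions were higher in replicate 1 than in replicate 2. C5ar1, the gene for a receptor of complement C5a, was followed at 168 bp by a region with folds of 12.2 and 9.37, which also lay within 5 kb before the TSS of C5ar2. Axl, a receptor gene for apoptotic cell uptake, had a region with folds of 13.7 and 9.71 at 1400 bp. The midpoint of the Axl region lay inside the RefSeq model of the next gene, Hnrnpul1, 395 bp from a RefSeq TSS. Its interval also reached into the GENCODE model of Hnrnpul1.

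To ask whether the zone beyond genes was richer in RBPJ regions than other intergenic sequence, regions were counted per Mb of sequence that met the same positional rule. The zone beyond 3′ ends held 11.98 regions per Mb (95% interval 11.2 to 12.9; 771 regions over 64.3 Mb). The upstream flank, within 5 kb before the 5′ end of a protein-coding gene, more than 1 kb from any TSS and not in the zone beyond a 3′ end, held 18.6 per Mb (17.4 to 19.8; 890 regions over 47.9 Mb). Remote intergenic sequence, in neither zone, held 3.33 per Mb (3.23 to 3.43; 3987 regions over 1198 Mb). Density beyond 3′ ends was thus 3.60 times that of remote sequence (95% interval 3.33 to 3.89; adjusted p = 1.48e-173, exact binomial test). It was 0.645 times that of the upstream flank (0.585 to 0.711; adjusted p = 9.78e-19, exact binomial test). The density was above remote on 20 of 20 chromosomes, and below the upstream flank on 18 of 20. Each library alone gave the same order. Replicate 1 had 71.3 peaks per Mb beyond 3′ ends, 107 in the upstream flank and 15.3 in remote sequence, and replicate 2 had 23.4, 35.1 and 8.61. The tests count regions as independent although neighbors can share a locus, and they say nothing about spread between mice. Sequence in both zones was counted as downstream. Beside the positional rule only unread bases were left out of the Mb, whereas reads were filtered for mapping quality. The part of either in the ratios was not tested.

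**Figure D2:**
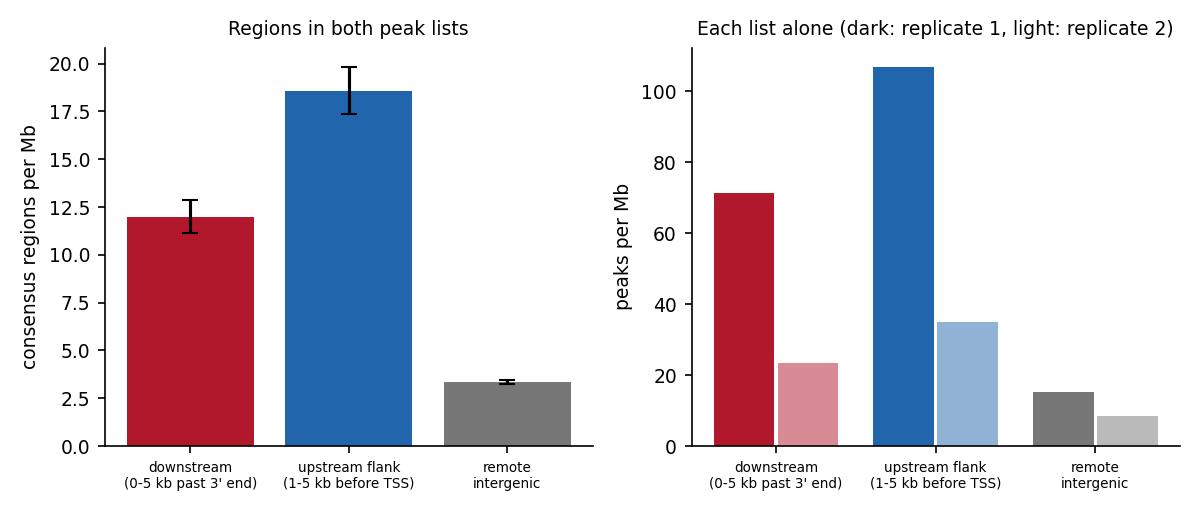
RBPJ regions per Mb of eligible sequence in the 3 classes. Left, consensus regions with 95% Poisson intervals; right, peaks of each library alone, with no error bar. Sequence beyond 3′ ends (11.98 per Mb) sits between the upstream flank (18.6) and remote intergenic sequence (3.33), and both libraries show this order.

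Within the zone, density ranged from 10.5 to 13.5 regions per Mb in steps of 500 bp from the 3′ end. The first kb held 12.5 per Mb and the rest of the zone 11.8, a ratio of 1.05 (95% interval 0.891 to 1.24; adjusted p = 0.525, exact binomial test). Replicate 1 alone gave 1.12 (adjusted p = 0.00124, exact binomial test). Gaps in which the next protein-coding gene points toward the zone with its own 3′ end (convergent) held 11.01 regions per Mb, and gaps that lead to the TSS of the next gene (tandem) held 12.5. Their ratio was 0.877 (0.754 to 1.02; adjusted p = 0.118, exact binomial test), and 0.868 with replicate 1 alone (adjusted p = 5.48e-06). Regions in convergent gaps had a median lower fold of 4.57 and those in tandem gaps 4.35. The midpoint of 168 members (21.8%) also lay within 5 kb before the 5′ end of another protein-coding gene model, and 70 lay beyond the 3′ ends of more than 1 such gene.

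**Figure D3:**
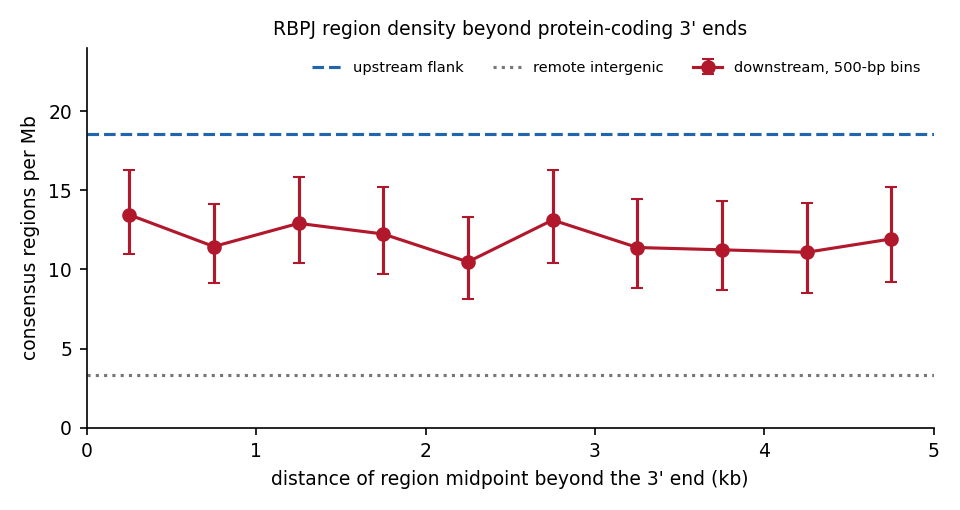
Density of consensus RBPJ regions in steps of 500 bp beyond the 3′ end of protein-coding genes, with 95% Poisson intervals. The 10 points lie between 10.5 and 13.5 regions per Mb at all distances, above the dotted line for remote intergenic sequence (3.33) and below the dashed line for the upstream flank (18.6).

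The annotation itself limited how firmly the regions could be called downstream. The midpoints of 72 members lay inside a RefSeq gene, in 20 cases the RefSeq model of the same gene, which then runs further than the GENCODE one. For 53 members a RefSeq TSS lay within 1 kb, and 17 of these were the regions at tRNA genes. In 89 members the interval reached back into the gene it follows, with the summit still inside the gene in 18. With RefSeq genes and TSSs left out as well, an alternative chosen after the data had been seen, 665 regions were left and the density was 3.96 times that of remote sequence.

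In strength, differences between downstream and other intergenic regions were small and varied with the setting. Of the 771, 340 (44.1%) reached the median lower fold of all consensus regions up to 3000 bp wide, which was 4.69. Because many folds are tied there, 51.5% of all those regions reached it. The share was 46.0% in the upstream flank, a difference of -1.86 percentage points (95% interval -6.63 to 2.94; adjusted p = 0.573, Fisher's exact test). With replicate 2 alone it was -5.34 points and passed (-8.77 to -1.89; adjusted p = 0.00663, Fisher's exact test). In remote sequence it was 49.8%, a difference of -5.74 points (-9.54 to -1.89; adjusted p = 0.00897, Fisher's exact test). The difference from remote sequence turned to 3.93 points with replicate 2 alone (adjusted p = 0.00663, Fisher's exact test). With replicate 1 alone it was -1.73 points (adjusted p = 0.142, Fisher's exact test). A list alone entered with all its peaks up to 3000 bp wide and their own median, so library and set of regions changed together. On the consensus regions, the median fold was lower beyond genes than in remote sequence in both replicates. It was 5.84 against 6.34 in replicate 1, and 4.69 against 5.02 in replicate 2. The 2 medians of the lower fold, 4.35 beyond genes and 4.64 in remote sequence, were closer than the 0.335 by which folds of replicate 2 were spaced.

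CpG-rich windows were few in each of the intergenic classes. Summit windows with at least 50% GC and a CpG observed over expected ratio of at least 0.6 numbered 21 of 771 (2.72%, 1.79 to 4.13%), 48 of 890 in the upstream flank (5.39%) and 97 of 3987 in remote sequence (2.43%). The difference from the upstream flank was -2.67 points (-4.60 to -0.755; adjusted p = 0.0110, Fisher's exact test). It was -0.297 points, with an adjusted p of 1, once RefSeq genes and TSSs were left out as well, and -0.759 and -0.416 points, past no threshold, with replicates 2 and 1 taken alone. The difference from remote sequence was 0.291 points (-0.782 to 1.76; adjusted p = 0.613, Fisher's exact test). With replicate 2 alone it was 1.03 points and passed (0.317 to 1.96; adjusted p = 0.00663, Fisher's exact test). Of the 21 CpG-rich regions, 5 were at tRNA genes. Repeat-masked bases made up at least 50% of the window in 13.9% of members, 12.8% of upstream flank regions and 9.03% of remote regions, a count without a test. For CpG-rich and for repeat-masked windows, the share over all consensus regions is not given here.

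Peaks beyond genes recurred more often between the libraries than remote peaks, and about as often as those of the upstream flank. Of the 1507 replicate 2 peaks up to 3000 bp wide with their midpoint beyond a 3′ end, 1018 (67.6%, 65.1 to 69.9%) overlapped a replicate 1 peak. In the upstream flank 1145 of 1680 (68.2%) did, a value given without a test. Of 10316 remote peaks 49.0% did, a difference of 18.5 points (15.9 to 21.05; adjusted p = 3.04e-41, Fisher's exact test). Where the summits had to lie within 100 bp of each other the difference was 5.95 points (adjusted p = 2.58e-06), and with −log10 q of at least 5 in both lists it was 5.67 points (adjusted p = 0.0152, Fisher's exact test for both). Replicate 1 had 4.65 times as many peaks per Mb beyond genes as in remote sequence, and the part of this in the difference was not tested.

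Summits of downstream regions carried the motifs of macrophage factors more often than sequence beside them. Windows of 100 bp to each side of the summit were compared with windows of the same width centered 1000 bp further from the gene, in the 376 regions whose second window touched no peak of either library. Motifs were searched on both strands, and the longer RBPJ form contains the core. The CEBP motif (TTGCNNAA) was present at 15.2% of summits and in 6.12% of flanks (found only at the summit in 54 pairs and only beside it in 20; adjusted p = 0.00125, McNemar's exact test over 13 motifs). The RUNX motif rose from 13.3 to 23.7% (80 against 41 pairs; adjusted p = 0.00324, same exact test) and the PU.1 motif from 9.57 to 17.6% (59 against 29 pairs; adjusted p = 0.00790). AP-1 (TGANTCA; 9.57 and 5.05%) and the nuclear receptor core site (AGGTCA; 17.0 and 11.2%) had adjusted p-values of 0.0640, and the E-box (CACGTG; 5.32 and 2.39%) of 0.113. The RBPJ core was found at 21.3% of summits and in 18.6% of flanks (68 against 58 pairs; adjusted p = 0.666, McNemar's exact test). Its longer form GTGGGAA was found at 6.91 and 5.32% (26 against 20 pairs; adjusted p = 0.666, McNemar's exact test). The interferon regulatory factor motif (GAAANNGAA), the CTCF core (AGGNGGC), the GC box of SP and KLF factors (GGGCGG), the ZFP143 motif (ACTACAATT) and the polyadenylation signal (AATAAA), which ends many genes, had adjusted p-values of 0.498 or more. The polyadenylation signal was present at 21.0% of summits and in 21.5% of flanks. None of the 13 motifs read backward without complementing, a control of base composition, passed at an adjusted p of 0.05, and 1 did unadjusted. Replicate 1 alone gave 6 motifs higher at the summit (PU.1, CEBP, RUNX, AP-1, ZFP143 and the polyadenylation signal), and replicate 2 alone gave 1, the CEBP motif.

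Set against remote intergenic summits, the downstream summits had the PU.1, CEBP and AP-1 motifs less often. PU.1 was present in 15.0% of the 771 windows and 20.9% of the 3987 remote ones, a difference of -5.87 points (95% interval -8.55 to -2.91; adjusted p = 0.00192, Fisher's exact test). CEBP differed by -3.99 points (13.5 and 17.5%; adjusted p = 0.0203) and AP-1 by -3.67 points (8.95 and 12.6%; adjusted p = 0.0203, Fisher's exact test for both). The CTCF core was more frequent, with 11.2 and 7.98%, a difference of 3.18 points (0.963 to 5.73; adjusted p = 0.0203, Fisher's exact test). The upstream flank was near the downstream shares, with PU.1 in 16.1%, CEBP in 15.96%, AP-1 in 8.99% and the CTCF core in 11.8% of windows, given without a test. The RBPJ core was present in 21.9% of downstream, 19.6% of upstream flank and 19.1% of remote windows, and in 18.8% of all consensus windows up to 3000 bp wide (downstream minus remote 2.83 points, -0.213 to 6.11; adjusted p = 0.193, Fisher's exact test). Over those same windows PU.1 was present in 15.9%, CEBP in 14.2%, AP-1 in 9.21%, RUNX in 18.4% and the CTCF core in 13.004%. The longer RBPJ form was present in 4.65%, the nuclear receptor core site in 13.2%, the E-box in 4.95% and the GC box in 14.4%. The interferon regulatory factor motif was present in 7.74%, the ZFP143 motif in 0.293% and the polyadenylation signal in 19.98%. In the 771 downstream windows the GC box was present in 5.19%, RUNX in 21.7% and the nuclear receptor core site in 16.9%. The longer RBPJ form was present there in 5.71%, the E-box in 4.41% and the interferon regulatory factor motif in 7.004%. The ZFP143 motif was present there in 0.259% and the polyadenylation signal in 22.96%. Shares over all consensus windows were not compared by a test. The 4 differences from remote sequence that passed kept their sign in the 14 alternative settings. In 1 of the 14 only the window beside the summit was moved, which does not enter this comparison. None passed at an adjusted p of 0.05 (Fisher's exact test) with narrower windows about 100 bp wide or summits within 100 bp (1 unadjusted each). With −log10 q of at least 5 in both lists none passed either (2 unadjusted). With replicate 1 alone all 4 passed, and with replicate 2 alone the CTCF core was the one that did. A match to these letters is a description of the sequence and not a bound site.

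**Figure D4:**
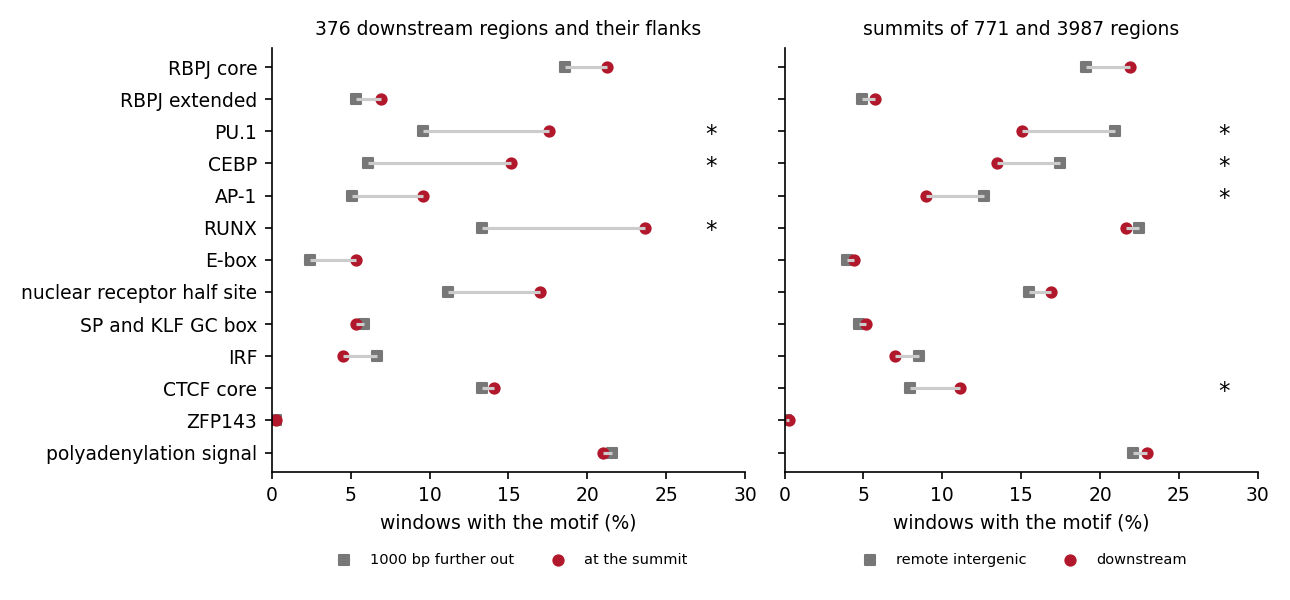
Share of windows, 100 bp to each side of a center, with each of 13 motifs. Left, summits of 376 downstream regions (circles) and windows 1000 bp further from the gene (squares); right, summits of 771 downstream (circles) and 3987 remote intergenic regions (squares). Asterisks mark an adjusted p under 0.05. PU.1, CEBP and RUNX are higher at the summit than beside it, and PU.1, CEBP and AP-1 are lower downstream than in remote regions.

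The 771 regions followed 605 of 21755 protein-coding genes, or 2.78% of them. Most of these genes (475) had a single region, 100 had 2, 24 had 3 and 6 had 4. Of the 605, 383 (63.3%) also had a consensus region within 1 kb of a TSS, beside 33.7% of all protein-coding genes. In other words, 5.23% of genes with a consensus region at the promoter and 1.54% of the others had a downstream region. Lists of genes were then counted against the background of 2.78%. They were drawn up with earlier results of these data in view and are no independent evidence.

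Genes of AM identity had downstream regions in 8 of 30 cases (26.7%) and AM and macrophage transcription factor genes in 7 of 24 (29.2%). Most of these genes also had a consensus region at the promoter (25 of 30 and 21 of 24). Signals of the niche had 3 of 19, lipid metabolism 3 of 26, pan-macrophage genes 3 of 20, apoptosis 2 of 20 and housekeeping genes 2 of 16. Genes of the Notch pathway and RBPJ cofactors had 2 of 32, and canonical Notch targets 0 of 15, which allows a share of up to 20.4% (Wilson). There was no downstream region at any of 16 lymphocyte, 15 neuronal, 12 alveolar type II, 12 endothelial and 13 monocyte and immature macrophage genes, and 1 at 12 neutrophil genes. In lists this short, 0 allows a share of up to 19.4 to 24.2% (Wilson), which includes the background of 2.78%. Promoter regions were also few for neurons (0 of 15), lymphocytes (1 of 16) and neutrophils (1 of 12).

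**Figure D5:**
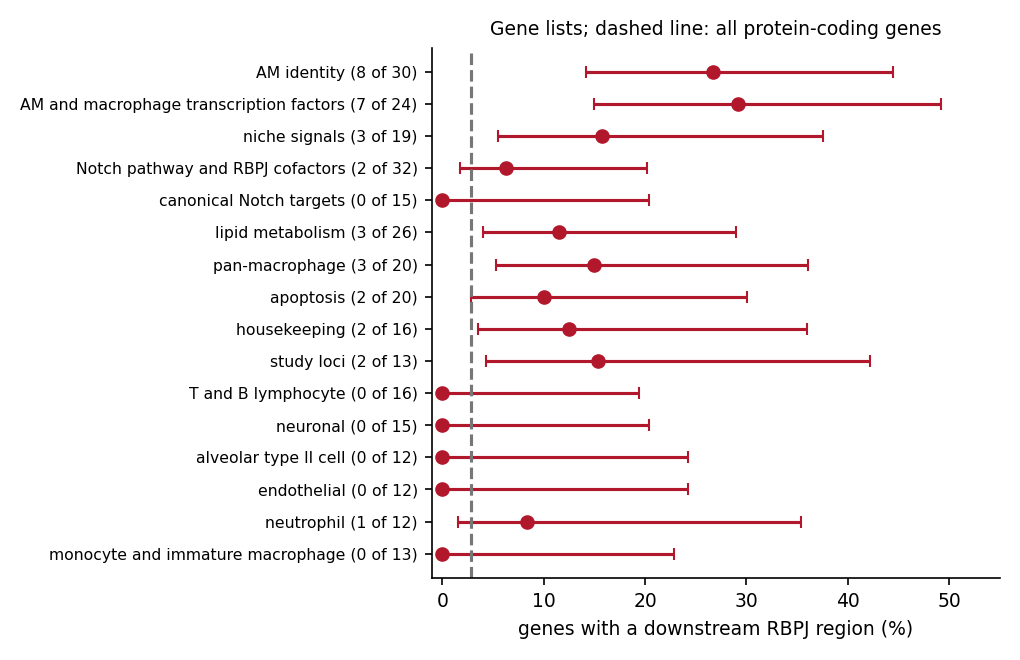
Share of the genes of each list that had at least 1 downstream RBPJ region, with Wilson 95% intervals and the counts beside the list names. The dashed line is the 2.78% of all 21755 protein-coding genes. AM identity genes (8 of 30) and macrophage transcription factor genes (7 of 24) lie furthest to the right, and 6 lists have no such gene.

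Regions at AM identity genes were of ordinary strength. Ctsk encodes the collagen-degrading protease cathepsin K and was followed at 2584 bp by a region with folds of 8.12 and 4.69 in replicates 1 and 2. Lpl, which encodes lipoprotein lipase, had 3 regions within 1750 bp of its 3′ end, with folds of 3.77 and 5.36, 5.33 and 4.69, and 4.31 and 3.83 from near to far. Cidec, a lipid droplet gene, had 2, with folds of 4.55 and 4.71 at 1185 bp and 4.73 and 3.24 at 3556 bp. The other 5 genes of the list with a region were Atp6v0d2, Chil3, Car4, Ucp3 and Fabp5. No region of this list exceeded a lower fold of 4.69, the median of all consensus regions up to 3000 bp wide.

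Among transcription factor genes, Egr2, an AM zinc finger factor gene, had a region across its 3′ end with folds of 5.33 and 5.36, centered 54 bp beyond the gene and with the summit still inside it. Runx1 had 3 regions, of which the furthest, at 3615 bp, was the highest (9.13 and 5.02). Rxra, which encodes retinoid X receptor α and is at a locus the study displays, had 2, at 2183 bp (6.79 and 5.02) and 4950 bp (7.10 and 5.02), and no consensus region within 1 kb of a TSS. Zeb2, another displayed locus and a repressor gene that keeps tissue macrophages distinct, had 3, led by 9.68 and 4.95 at 1824 bp. They were the 2 genes with a downstream region on a list of 13 of the loci the study displays, which does not hold every one of them (Ucp3, named above, is not on it). Fosl2, Bhlhe41 and Cebpa were the other factor genes with one. For Runx1 and Zeb2, each region had the higher fold in replicate 1.

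Receptors and ligands showed the same modest level. Csf2rb encodes the signaling chain of the GM-CSF receptor and had 2 regions, with folds of 2.99 and 4.32 at 285 bp and 10.4 and 5.36 at 1354 bp. Tgfbr1, a TGF-β receptor gene, had 1 region at 2615 bp (6.09 and 5.02), and Socs3, a feedback inhibitor of cytokine receptors, had 1 at 2882 bp (4.06 and 5.36). In the Notch pathway, the ligand gene Jag1 had a region at 885 bp with folds of 7.61 and 3.12 and an RBPJ core motif in its window, inside the RefSeq model of the next gene Slx4ip. The receptor gene Notch4 had one at 277 bp with folds of 4.06 and 2.97. Both ranked among the weakest members, with lower folds under the lower quartile of 3.68.

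Of the lipid metabolism genes, Npc2, which moves cholesterol out of lysosomes, had the region with the highest lower fold, with folds of 8.33 and 6.69 at 2395 bp and an RBPJ core motif. Dgat2, a triglyceride synthesis gene, had folds of 8.12 and 5.36 at 2294 bp. Of the pan-macrophage genes, Lyz2 (lysozyme) had 2 regions, with folds of 8.40 and 4.69 at 1077 bp and 2.92 and 6.69 at 4930 bp, so that the libraries put them in opposite order. The apoptotic cell receptor gene Mertk had 6.60 and 4.35 at 3868 bp, and Tlr2, a sensor gene for bacterial lipoproteins, had 9.13 and 4.02 at 1370 bp. Pmaip1, which encodes the death inducer NOXA, had 2 regions, the further with folds of 9.39 and 5.36, and the survival gene Bcl2a1a had 1 with 4.82 and 4.69. The housekeeping genes with regions were Eef1a1 (5.66 and 5.36 at 1129 bp) and Actb (4.06 and 5.53 at 141 bp, 2.85 and 3.68 at 3104 bp). Ltf, the lactoferrin gene of neutrophil granules, had folds of 7.66 and 8.03 at 3895 bp, above every region of the AM identity list in replicate 2 and below that of Ctsk in replicate 1. The next gene along was Ccrl2, and no other gene of the neutrophil list had a region.

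Some genes were followed by a row of regions. The 6 genes with 4 each were Midn, Scimp, Dgke, Hspa8, Akap13 and Ccnl1. Midn encodes midnolin, a carrier of proteasome substrates. Its regions lay 426, 2132, 3684 and 4277 bp beyond the gene, with folds of 7.61 and 7.70, 11.7 and 7.03, 12.7 and 6.36, and 4.31 and 3.63. Scimp, an adaptor gene of antigen-presenting cells, had its highest region at 3831 bp (10.7 and 7.36), and Dgke, a diacylglycerol kinase gene, at 2212 bp (13.4 and 5.94). The regions of Hspa8, a constitutive chaperone gene, were even, with lower folds from 4.31 to 5.36, as were those of Akap13, a kinase anchor gene, with lower folds from 3.70 to 5.36. Ccnl1, a cyclin gene of RNA processing, had the weakest set, from 2.22 to 5.02. Regions in such a row are separate intervals of 1 locus and do not count as independent observations.

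At its limits the rule cut through a continuum. The region just inside 5 kb was 4999 bp beyond Map7d1 (folds of 7.10 and 5.69), and the region just outside was 5001 bp beyond Ier5 (10.4 and 4.35). The widest member, 2942 bp, followed Cxcl2 (5.07 and 11.05). The narrowest region that was too wide, 3028 bp, followed Per1 (9.89 and 4.69), and 33 regions in the zone were left out for width. A member beyond Ear10 was 1001 bp from the nearest TSS (4.82 and 3.68), and a region beyond Aldh1a3 at 1000 bp was left out (8.88 and 5.36).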

How the data were processed

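The deposited data were 2 MACS3 peak lists, one per RBPJ library, each called by the authors against an input library at a q-value of 0.05. Per the labels and the study's methods, reads were converted with bcl2fastq 2.20.0.422, trimmed with cutadapt, aligned to mm10 with Bowtie2 and filtered with SAMtools for proper, non-duplicate pairs of high mapping quality. The authors' lists give per peak the fold over background at the summit, the −log10 p-value and the −log10 q-value. Read depth per library was not analysed here, so peak numbers can reflect depth, and the spacing of the folds limits precision. The inputs entered only through peak calling.

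Overlapping peaks (at least 1 bp) were merged and placed against GENCODE vM21 genes on GRCm38 (the assembly of mm10). tRNA genes came from RefSeq. The eligible sequence of each class was measured under the same positional rule. Densities were compared with exact conditional binomial tests (adjusted over 4), shares of regions by Fisher's exact test, their differences being given with Newcombe intervals (over 5), motifs at and beside summits with McNemar's exact test, and motifs between classes with Fisher's exact test (each over 13). All tests were two-sided, with Benjamini-Hochberg adjustment and a threshold of 0.05. In alternatives where the recurrence of peaks was not compared, as with 1 library alone, shares of regions were adjusted over 4. Intervals cover counting error only, and with 2 libraries no test covers spread between mice. The scripts were tested on simulated data. Members and gene lists were chosen with earlier results of these data known. Genes named by rule were those of the 12 regions with the highest lower fold, up to 3 per list by lower fold, displayed loci with a region, the 6 genes with most regions, and those at the rule's limits. Other listed genes are named without values. Scripts ran in Python 3.11.15 with SciPy 1.17.1 for the tests, pandas 2.3.3 and numpy 2.4.6 for the tables, and matplotlib 3.10.9 for plots.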

Additional observations from a re-analysis of the deposited data

How the results depend on the processing

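No paired analysis was possible because the inputs have no values of their own here. Of 133 values from 14 alternatives (12 planned, 2 chosen after the data were seen), 98 kept: 79 of 104 ratios and differences stayed on their side of the threshold in the same direction, and 19 of 29 counts, which name no particular regions or motifs, stayed within 1.5 times. The number of regions was 341 with −log10 q of at least 5 in both lists, 414 with summits within 100 bp, 363 within 2 kb of the 3′ end, and 1507 to 4590 with 1 library alone. The density ratios of downstream over upstream flank (0.592 to 0.694) and over remote sequence (2.72 to 4.65) kept their calls. First kb over the rest was 1.02 to 1.12 with 1 library alone and 0.992 within 2 kb. Convergent over tandem was 0.868 to 0.924 with 1 library alone, 1.003 with summits within 100 bp, 1.05 within 2 kb, 0.829 (adjusted p = 0.0190, exact binomial test) with the summit in place of the midpoint, and 0.807 (adjusted p = 0.00316) with protein-coding genes only. Strong share minus upstream flank was -5.34 (replicate 2, which passed) to -0.470 points with 1 library alone. Strong share minus remote was -1.73 to 3.93 points with 1 library alone, -2.93 with summits within 100 bp, -4.70 more than 2 kb from any TSS, and -5.11 within 2 kb of the 3′ end. CpG-rich share minus upstream flank lost its call at -2.67 points with summits within 100 bp, -0.759 to -0.416 with 1 library alone, -1.51 with the summit in place of the midpoint, -1.13 with protein-coding genes only, -1.29 more than 2 kb from a TSS, -2.17 within 2 kb of the 3′ end, -1.76 with the TSSs of all transcripts, and -0.297 without RefSeq genes. CpG-rich share minus remote was 0.187 to 1.03 points (replicate 2, which passed) with 1 library alone, -0.0310 without regions at tRNA genes and -0.0244 without RefSeq genes. Motifs higher at summits numbered 1 to 6 with 1 library alone. They were RUNX, E-box and the nuclear receptor core site with −log10 q of at least 5, PU.1, CEBP and E-box with summits within 100 bp, and CEBP alone within 2 kb of the 3′ end. Motifs that differed from remote numbered 0 with −log10 q of at least 5, with summits within 100 bp and with narrower windows (Fisher's exact test; unadjusted 2, 1 and 1), and 5 with either library alone, of which 4 and 1 were among the original 4 with replicates 1 and 2. The causes were not tested.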
